A study of Mus musculus with 5 samples.

Results

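The SoxC genes Sox4, Sox11 and Sox12 and Gm26735, a long intergenic noncoding RNA gene whose last exon lies on the opposite strand of Sox4, were examined for SOX4 and RELA peaks. A peak was assigned to a gene when its summit, the base with most reads, lay in the gene body or at most 50 kb upstream of the gene's start (mm10, GENCODE vM21). These are 4 of the 55450 annotated genes, and 6 of the 3798 listed peaks were assigned to them. The peaks came from ChIP-seq of wildtype C57BL/6 mouse fibroblast-like synoviocytes (FLS), cells of the joint lining grown in culture. The FLS carried no transgene or deletion. They received TNF (10 ng/mL, 16 h) or were left untreated, and chromatin was precipitated with a SOX4 antibody or an antibody to RELA (NF-κB p65). There are 2 SOX4 lists (SOX4 untreated and SOX4 TNF) and 2 RELA lists (RELA untreated and RELA TNF), all called against 1 input library from untreated FLS. DNA of 3 cultures was pooled for each library, so there is 1 library per condition, no difference has a replicate check and no p-value is given for any difference. The lists hold no expression values, so the cell type could not be checked with marker genes.

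SOX4, SOX11 and SOX12 are the SoxC group of transcription factors. They share an HMG-box DNA-binding domain that bends DNA and recognizes short words with a CAAAG or CAATG core, and they act during development of the skeleton, heart and nervous system. RELA is the NF-κB subunit that enters the nucleus when TNF signaling degrades its inhibitor. FLS are the main stromal cells of the synovium and respond to TNF with inflammatory and tissue-degrading programs. The comparison addresses where SOX4 and RELA were detected at the genes that encode the SOX4 group itself, with and without TNF.

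Sox4 and Sox11 carried peaks, and Sox12 carried none. All 4 peaks assigned to Sox4 lay in its 3′ UTR and also in the last exon of Gm26735, and both Sox11 peaks lay in the 3′ UTR of Sox11. At both genes a RELA peak was listed without TNF and a SOX4 peak was listed with TNF, while the SOX4 untreated list had no peak. With TNF, RELA had only a narrow, weak peak at Sox4 and no listed peak at Sox11.

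The share of genes with an assigned summit is the background for these counts. A SOX4 untreated summit was assigned to 0.595% of all annotated genes and 0.825% of protein-coding genes. For SOX4 TNF the shares were 1.54% and 2.03%. RELA untreated summits were assigned to 1.13% and 1.51%, and RELA TNF summits to 6.55% and 9.25%. Against this, SOX4 untreated had 0 of the 4 genes, SOX4 TNF and RELA untreated each had 3, and RELA TNF had 2. Sox4 and Gm26735 are counted by the same peaks, so the counts rest on the separate loci of Sox4 and Sox11.

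Sox4 is a gene of a single exon at chr13:28948919-28953713 on the minus strand, with a 3′ UTR of 2780 bases after the stop codon. Gm26735 runs the other way at chr13:28943048-28951671. The genes share 2753 bp, and the whole last exon of Gm26735 (2616 bp) lies inside Sox4. Sox11 is a single-exon gene too, at chr12:27334264-27342574 on the minus strand, with a 3′ UTR of 6957 bases after the stop codon. Sox12 lies at chr2:152393611-152398063 on the minus strand. ChIP-seq reads carry no information on which strand is transcribed, so the peaks at Sox4 cannot be divided between Sox4 and Gm26735.

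**Figure D1:**
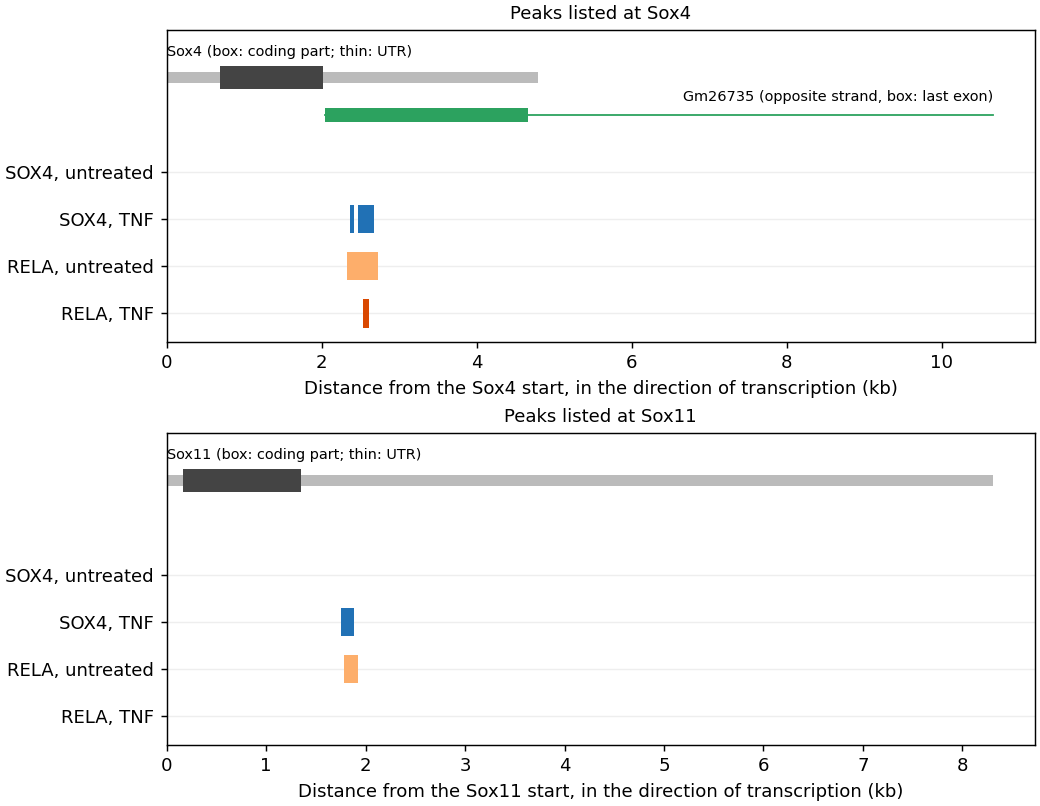
Gene models and listed peaks at Sox4 with Gm26735 (top) and at Sox11 (bottom), by distance in kb from the start of the Sox gene in the direction of its transcription. Colored bars are the listed intervals of the 4 lists, and all of them lie in the 3′ UTR past the coding part.

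The following stretches of the reference are shown because they hold the words closest to the recognition sequences of the precipitated factors within the peaks. They are written 5′ to 3′ on the minus strand, the coding strand of both genes (GRCm38.p6, the assembly behind mm10). Capitals mark a SOX word in the first and the last stretch. In the middle one they mark a match to the NF-κB consensus of 10 bases with 1 mismatch. They lie at chr13:28951064-28951093, chr13:28951111-28951130 and chr12:27340786-27340815.
Sox4 SOX words: ccccctCTTTGTAttctCTTTGTAtttttc
Sox4 NF-κB word with 1 mismatch: ggaggGGGAAAATCCagcgt
Sox11 SOX word: aagcttgtggctCTTTGAAgtctgaaagac

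The number of reads covering each summit was recovered from the deposited p-values and fold enrichments, which the peak caller computes from that number and a local background. Whole reads, to within 0.003 of a read, came out for all 3798 peaks. The implied depth was 33.4 M (M, 1000000) reads for SOX4 untreated, 41.3 M for SOX4 TNF, 46.0 M for RELA untreated and 38.3 M for RELA TNF. Each list implied the same 42.4 M input reads. A read was counted over 49 to 51 bases, the narrowest interval of each list. Intervals on reads are exact Poisson 95% intervals and cover counting error only.

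The RELA untreated peak at Sox4 was the widest of its 561 peaks and among the strongest. It covered chr13:28950989-28951384, a width of 396 bp against a list median of 60 bp. Its summit at 28951105 lay 594 bp after the Sox4 stop codon and 566 bp before the end of Gm26735. It held 50 reads (37.1 to 65.9), which is 1.09 reads per M library reads (RPM, 0.806 to 1.43), at 21.8-fold enrichment and a −log10 q of 51.4. It ranked 8 of 561 by fold enrichment, and 98.6% of the RELA untreated peaks had a lower one.

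The RELA TNF peak at the same place was narrow and near the bottom of its list. It covered 73 bp at chr13:28951105-28951177, all of it inside the RELA untreated interval. Its summit at 28951165, 534 bp after the stop codon, held 13 reads (6.92 to 22.2), or 0.339 RPM (0.181 to 0.580). The fold enrichment was 4.99 with a −log10 q of 5.34, rank 2466 of 2502. The local background at this summit equaled 2 input reads, whereas that of the RELA untreated summit was the genome-wide floor of its list.

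RELA enrichment at Sox4 was therefore lower in the TNF library. The fold enrichment with TNF was 0.229 of that without TNF. Its interval of 0.114 to 0.427 covers counting error in the summit reads only. Both local backgrounds, which differed, were taken as known, so the error of this ratio is larger. The ratio was 0.260 in reads (0.130 to 0.486) and 0.312 in RPM (0.156 to 0.584), so the listed reads with TNF lay below those without TNF beyond counting error. Across all 478 RELA untreated summits with a RELA TNF summit at most 100 bp away, the median ratio of fold enrichments was 1.21, and 65 pairs (13.6%) had a ratio under 1. The ratio at Sox4 was the lowest of the 478, in fold enrichment and in RPM. RELA untreated summits without a listed RELA TNF summit this near, that of Sox11 included, have no ratio and are not ranked. A ratio this low could be listed mainly at sites with a high enrichment without TNF, so the rank depends on the listing cutoff too. With 1 library each, the spread between cultures behind the Sox4 ratio is unknown.

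SOX4 had no peak at Sox4 without TNF and 2 peaks with TNF. The larger covered 197 bp at chr13:28951045-28951241, also wholly inside the RELA untreated interval. Its summit at 28951138, 561 bp after the stop codon, held 25 reads (16.2 to 36.9), or 0.606 RPM (0.392 to 0.894). It reached 8.82-fold enrichment with a −log10 q of 15.8, and was the second widest of 543 peaks, while its rank by fold enrichment was 261. The smaller peak, 64 bp at chr13:28951291-28951354, had its summit at 28951306, 393 bp after the stop codon. It held 10 reads (4.80 to 18.4) at 4.96-fold enrichment, with a −log10 q of 3.94 and rank 518 of 543.

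The absence of a SOX4 untreated peak at Sox4 bounds the reads there. With a local background of 2 input reads, 9 reads were the fewest that would pass the p-value cutoff of 1e-05 in the SOX4 untreated library, or 0.270 RPM. The counting interval of the larger SOX4 TNF peak, 0.392 to 0.894 RPM, lay above this limit. The limit bounds the reads counted without TNF, and their own counting error was not taken into account. That bound assumes that the cutoff alone decided the listing, and the interval also lay above the lowest SOX4 untreated peak listed at that background (10 reads, 0.2997 RPM). The nearest SOX4 untreated summit lay 813 kb downstream of Sox4.

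**Figure D2:**
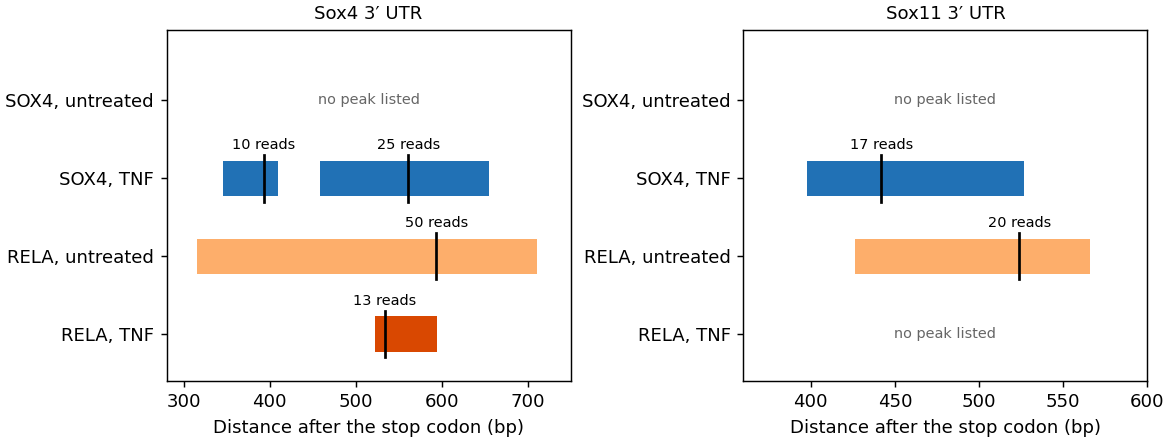
Listed intervals (bars) and summits (black lines) in the 3′ UTR of Sox4 (left) and Sox11 (right), by distance in bp after the stop codon, with the reads covering each summit. At Sox4 the narrower SOX4 TNF and RELA TNF intervals lie inside the RELA untreated interval of 396 bp, and at Sox11 the 2 intervals share 101 bp.

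The Sox4 summits of different lists did not coincide to the base. The RELA untreated and SOX4 TNF summits were 33 bp apart, the SOX4 TNF and RELA TNF summits 27 bp, and the RELA untreated and RELA TNF summits 60 bp. Summit pairs at most 100 bp apart were otherwise closer, with a median of 5 bp for RELA untreated and SOX4 TNF (322 pairs), 4 bp for SOX4 TNF and RELA TNF (382 pairs) and 5 bp for RELA untreated and RELA TNF (478 pairs). In these 3 comparisons 3, 3 and 10 pairs were farther apart than those at Sox4.

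At Sox11 the RELA untreated peak covered 140 bp at chr12:27340656-27340795. Its summit at 27340697, 524 bp after the stop codon, held 20 reads (12.2 to 30.9), or 0.434 RPM (0.265 to 0.671). The fold enrichment was 6.47 and the −log10 q 8.83, rank 456 of 561, with a local background of 2 input reads. In width it ranked 13. The peak was thus one of the wider ones of its list and below most in enrichment.

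The SOX4 TNF peak at Sox11 covered 129 bp at chr12:27340695-27340823, the sixth widest of 543. Its summit at 27340779, 442 bp after the stop codon, held 17 reads (9.90 to 27.2), or 0.412 RPM (0.240 to 0.659). The fold enrichment was 8.56 and the −log10 q 11.6, rank 271 of 543. The RELA untreated and SOX4 TNF intervals shared 101 bp, 72.1% of the former and 78.3% of the latter, but the summits were 82 bp apart.

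The missing peaks at Sox11 were less informative than at Sox4. With a background of 2 input reads, a SOX4 untreated peak needed 9 reads (0.270 RPM) and a RELA TNF peak needed 10 reads (0.261 RPM). The counting interval of the SOX4 TNF peak, from 0.240 RPM, reached below its limit, and that of the RELA untreated peak began at 0.265. The lowest RELA TNF peak listed at that background held 11 reads (0.287 RPM), and against this value the RELA interval reached below the limit too. The SOX4 TNF summit at Sox11 had the floor of its list as local background. At the floor of SOX4 untreated, 7 reads (0.210 RPM) would pass the cutoff, which is below the SOX4 TNF interval. The lowest SOX4 untreated peak listed at the floor held 9 reads (0.270 RPM), which is inside it. For both RELA and SOX4 the answer at Sox11 thus depended on the limit taken, and a difference with TNF was not established at this depth. The nearest RELA TNF summit lay 210 kb downstream of Sox11, and the nearest SOX4 untreated summit 4394 kb upstream.

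**Figure D3:**
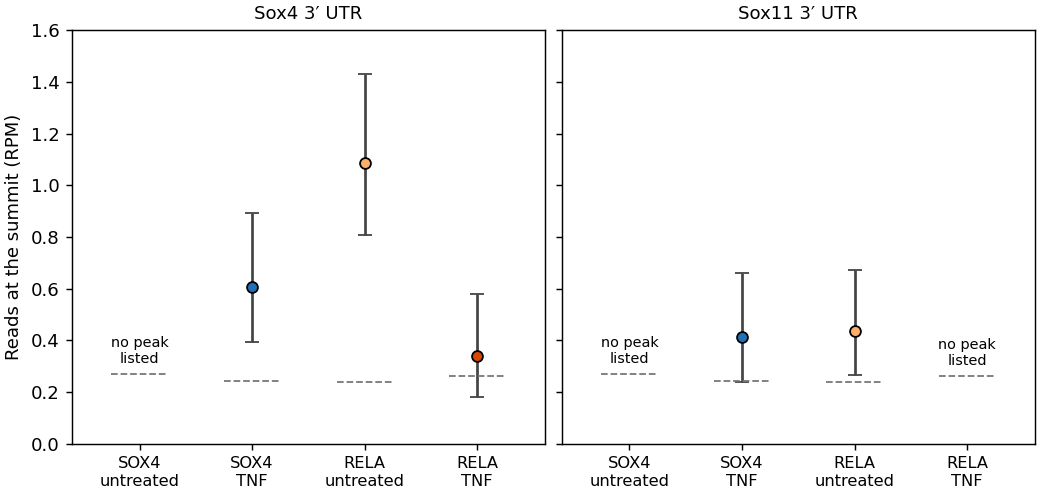
Reads covering the highest summit per M reads of the library at the Sox4 (left) and Sox11 (right) 3′ UTR, 1 library per condition. Points are the listed peaks with exact Poisson 95% intervals, and dashed lines are the fewest reads that pass the p-value cutoff at a background of 2 input reads. RELA untreated at Sox4, at 1.09, is the highest value, and the RELA TNF value of 0.339 is near its dashed line.

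Width separated these peaks from most others in the lists. Of the RELA untreated peaks 52.2% were at most 60 bp wide, and of the SOX4 TNF peaks 59.7%, close to the length of a read. The Sox4 interval of 396 bp was followed in the RELA untreated list by intervals of 341 bp on chromosome 17, 239 bp on Y, 219 bp on 11 and 196 bp on Y, none of them in a gene. In SOX4 TNF, the interval of 197 bp at Sox4 stood behind the same chromosome 17 site (341 bp) and before an intron of Prg4 (153 bp), the gene of the joint lubricant lubricin, and intergenic intervals of 132 bp and 130 bp. In RELA TNF the Sox4 interval ranked only 273 by width. The widest there were 475 bp on Y, 466 bp at the chromosome 17 site, 358 bp in an intron of Ano2, a calcium-activated chloride channel gene, 321 bp over exons of Rn7s2 and Gm47299, of which Rn7s2 encodes the RNA of the signal recognition particle, and 310 bp on Y.

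**Figure D4:**
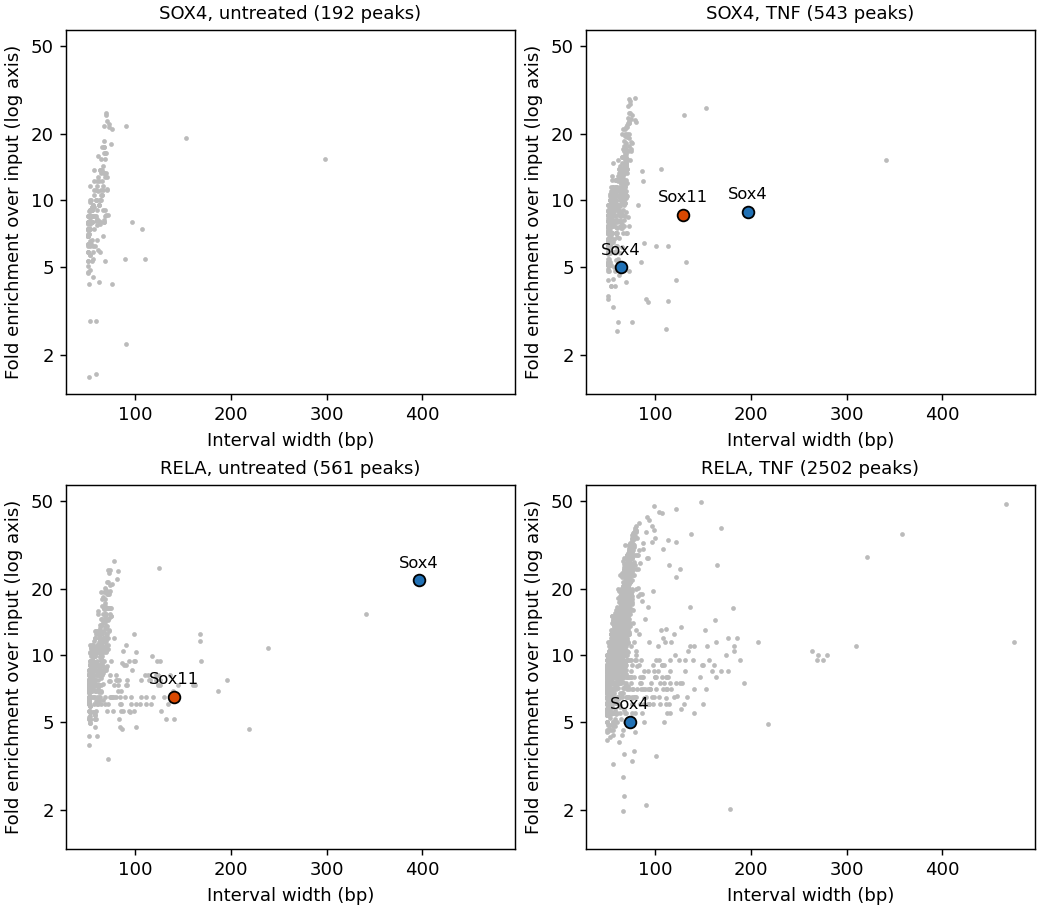
Interval width in bp against fold enrichment over input (log axis) for every peak of the 4 lists in gray, with the Sox4 and Sox11 peaks colored. Most peaks form a narrow column near 60 bp, and the Sox4 peak of RELA untreated (396 bp, fold 21.8) stands at the right end of its list.

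The other 3′ UTR peaks were narrower than the RELA untreated and larger SOX4 TNF peaks at Sox4 and than both Sox11 peaks. In RELA untreated 4 of 561 summits lay in a 3′ UTR, and those besides Sox4 and Sox11 were 64 and 68 bp wide. In SOX4 TNF there were 6 of 543, 3 of them at Sox4 and Sox11, and the 3 others were 50 to 69 bp wide, a range that includes the smaller SOX4 TNF peak at Sox4 (64 bp). In RELA TNF the 34 others of 35 were 49 to 111 bp wide with a median of 59.5 bp, so the RELA TNF interval at Sox4 (73 bp) was within their range.

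The combination seen at Sox4, a RELA untreated summit with a SOX4 TNF summit within 50 bp and no RELA TNF or SOX4 untreated summit within 50 bp, occurred at 20 of 561 RELA untreated summits (3.57%). The 19 others were 51 to 86 bp wide, held 13 to 35 reads and had fold enrichments of 4.62 to 10.3, all below the 396 bp, 50 reads and 21.8 of Sox4. Of these, 12 lay outside genes, 5 in introns and 2 in exons. The genes included Rn7s2 (exon, 35 reads), Zfp622 (exon, 16 reads), a zinc finger protein gene, and the introns of Csrnp3 (14 reads), the noncoding Platr4 (20 reads), Sgip1 (15 reads), which acts in endocytosis, and Tmed5 (16 reads), a gene of the early secretory pathway. Sox4 met this rule only because its RELA summits were 60 bp apart. The Rn7s2 site likewise lay wholly inside a RELA TNF interval, of 321 bp with 77 reads. It met the rule because the nearest RELA TNF summit was 233 bp away. With limits of 10, 100 and 500 bp the rule gave 36, 21 and 19 sites, without Sox4 in each case and with Sox11 at 100 and 500 bp.

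The sequence under the Sox4 peaks held a pair of SOX words. The search covered, on both strands, the 8 words that have A or T in the first and second places, then CAA, then A or T, and G at the end. TACAAAG occurred at 28951070 and 28951081, with starts 11 bp apart, and reads CTTTGTA on the coding strand shown above. The centers of the words lay 32 and 21 bp from the RELA untreated summit, 65 and 54 bp from the larger SOX4 TNF summit and 92 and 81 bp from the RELA TNF summit. Both lay inside the RELA untreated and the larger SOX4 TNF intervals, and neither in the RELA TNF interval. At Sox11, TTCAAAG at 27340797 lay 21 bp from the SOX4 TNF summit and 103 bp from the RELA untreated summit, inside the SOX4 TNF interval alone.

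Such words were common in all lists. Of the 100-bp windows centered on the 6 summits, 2 held a SOX word, the RELA untreated window at Sox4 and the SOX4 TNF window at Sox11. Over all windows of a list the share was 16.7% for SOX4 untreated (Wilson 95% interval 12.1% to 22.6%), 18.0% for SOX4 TNF (15.0% to 21.5%), 18.2% for RELA untreated (15.2% to 21.6%) and 15.7% for RELA TNF (14.3% to 17.1%). Windows 2000 bp to either side of the summits had 14.8%, 16.4%, 16.8% and 15.2%.

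The NF-κB consensus occurred in none of the 6 intervals and windows, and in 0.521% of SOX4 untreated, 0.552% of SOX4 TNF, 0.535% of RELA untreated and 0.440% of RELA TNF windows. With up to 1 mismatch, a setting chosen after the data were seen, all 4 Sox4 windows and neither Sox11 window held a match. The windows of the RELA untreated, RELA TNF and larger SOX4 TNF summits share the match at chr13:28951116-28951125 shown above, whose center lay 16 bp from the RELA untreated summit, 17 bp from the larger SOX4 TNF summit and 44 bp from the RELA TNF summit. This match overlaps another that starts 1 base before it. Matches with up to 1 mismatch occurred in 8.85%, 11.4%, 9.45% and 10.99% of all windows of the 4 lists in the same order. The windows 2000 bp to either side had 11.2%, 11.5%, 10.8% and 10.9%. A word match is a description of the reference sequence and no evidence of binding to it.

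The sequence at the 6 summits had no second exact copy, and copies with mismatches were not searched. The 50 bases centered on each summit occurred once in the 66 sequences of the reference searched on both strands, and the longest word common to the Sox4 and Sox11 peak regions was 9 bases. The RELA untreated summits at Sox4 and Sox11 fell on bases soft-masked as repetitive, and the other 4 summits did not. Of the 100-bp windows, the RELA untreated ones were 70% (Sox4) and 94% (Sox11) soft-masked, and the other 4 were 18% to 53%. The RELA untreated window at Sox11 had a GC content of 26.0% and the one at Sox4 47.0%, against a list median of 39.0%.

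Sox12 had no assigned summit, and none lay near. The nearest summit was 610 kb downstream in SOX4 untreated, SOX4 TNF and RELA untreated, at chr2:151783693 or 2 bases from it, and 301 kb downstream in RELA TNF, in an intron of Scrt2. The nearest protein-coding neighbors, Nrsn2 at 17.0 kb and Zcchc3 at 13.9 kb, had no assigned summit either.

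Sox4 and Sox11 stand in gene-poor surroundings, and their peaks were isolated. The nearest protein-coding genes to Sox4 were Cdkal1 at 238 kb, a tRNA-modifying enzyme gene, and Gm11361 at 691 kb. Outside Sox4 the next summit lay 813 kb downstream in all 4 lists, where the fold enrichment was 10.6 in SOX4 untreated, 24.2 in SOX4 TNF, 23.95 in RELA untreated and 28.4 in RELA TNF. Cdkal1 had 1 summit upstream in RELA untreated (22 reads) and 1 in RELA TNF (18 reads), and Gm11361 had none. The neighbors of Sox11, Cmpk2 at 854 kb and Dcdc2c at 1095 kb, had none.

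Among the 20 mouse Sox family genes, Sox4 and Sox11 alone had an assigned summit in any list. The 18 others, Sox12 and the long genes Sox5 (953553 bp) and Sox6 (567925 bp) included, had none. By list, 0 of 20 had a SOX4 untreated summit (0.825% of all protein-coding genes had one), 2 a SOX4 TNF summit (2.03%), 2 a RELA untreated summit (1.51%) and 1 a RELA TNF summit (9.25%). With shares this low among all genes, a lack of summits at most Sox genes does not set the family apart, and the RELA TNF count is no higher than the background.

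Of 6 genes tied to SoxC proteins by general knowledge (Tead2, Tubb3, Ezh2, Dicer1, Adamts4 and Adamts5), only Tead2, a transcription factor gene of the Hippo pathway, had a summit. This is 1 of 6 genes in SOX4 TNF and in RELA TNF, where 2.03% and 9.25% of all protein-coding genes had one, and nothing is read from the count. The summits were 1 bp apart at chr7:45185441 and chr7:45185442, 30.3 kb upstream of Tead2 in an intron of Ccdc155. The SOX4 TNF interval was 53 bp wide with 17 reads at 8.56-fold enrichment. That of RELA TNF was 54 bp wide, with 18 reads at 9.48-fold. Neither untreated list had a summit there. This site paired SOX4 and RELA under TNF, whereas Sox11 lacked a listed RELA TNF peak.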

How the data were processed

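ChIP-seq libraries of wildtype mouse FLS were sequenced by the authors as single-end reads of 50 bases, aligned to mm10, and peaks were called with MACS in Strand NGS 4.0 against the input library (the submitters' processing notes name MACS2). The deposited lists give each interval, its summit, a fold enrichment (a ratio to the local background) and −log10 p and −log10 q scores, with a p-value cutoff of 1e-05 per the file headers. Handling of duplicate and multiply mapped reads is not given in the sources used here. The headers state a fragment length of 300, while the recovered depths are coherent with reads piled up over 49 to 51 bases.

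All listed peaks were used, with coordinates as deposited. Reads covering each summit (x) and the local background were solved from the fold enrichment, (x + 1) over (background + 1), and the Poisson p-value. RELA untreated pile-ups had been scaled by 0.921 and were divided by this value. The genes and lists were chosen with earlier results of these data known. Named genes are the 4 genes, Sox family and SoxC-linked genes with a summit, nearest protein-coding neighbors, genes with the pattern of Sox4, and genes at the 5 widest peaks of lists with an assigned peak. The peak of 1 such gene is not reported here. Gene assignment, the solving for reads and background, and word search were checked on simulated data. These checks did not cover the scaling, the pile-up length or the implied depths. Alternatives are in the closing section. Python 3.11.15, numpy 2.4.6, pandas 2.3.3 and scipy 1.17.1 were used.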

Additional observations from a re-analysis of the deposited data

Results flagged for a closer look

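The listed peaks of the 2 antibodies at Sox4 and Sox11 differed in opposite directions between the untreated and TNF lists, which is why they are given here. At Sox4 the RELA summit held 50 reads without TNF and 13 with TNF, whereas the SOX4 summit was not listed without TNF and held 25 reads with TNF. At Sox11 the RELA summit held 20 reads without TNF and was not listed with TNF, and the SOX4 summit was not listed without TNF and held 17 reads with TNF. At Sox11 neither difference was established at this depth, since for both antibodies the answer depended on the limit taken. The opposite directions there therefore rest on the listing alone. The difference between the antibodies was not tested, since each condition is 1 library.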

How the results depend on the processing

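Of 196 alternative values, 152 stayed within the limits set for each result, 44 moved and 0 reversed. Assigned summits did not change with 5 kb or 100 kb upstream, interval midpoints, any base of the interval or coordinates counted from 0. At a −log10 q of at least 5 or 10, SOX4 TNF kept 1 summit at Sox4 and Gm26735. At 10, RELA TNF had 0 there, RELA untreated had 0 at Sox11, and the Sox family had 1 gene in RELA untreated and 0 in RELA TNF. With 100 kb upstream the Sox family had 2 genes in RELA TNF, the added one being Sox6 (70.2 kb), and with 5 kb the SoxC-linked genes had 0 in SOX4 TNF and RELA TNF. The RELA ratio at Sox4 was 0.104 in −log10 q, which also depends on depth, and 0.142 to 0.312 in −log10 p, width and the added read measures. Between interval midpoints, the RELA peaks at Sox4 were 45 bp apart and the Sox11 peaks 34 bp. Sites with the Sox4 pattern numbered 36 with a limit of 10 bp. Windows of 200 bp held a SOX word at 4 of 6 summits, and the Sox4 windows among these share the same pair of words. Over all 200-bp windows the share was 28.1% for SOX4 untreated, 31.3% for SOX4 TNF, 34.8% for RELA untreated and 31.7% for RELA TNF. An NF-κB match with up to 1 mismatch was held by 4 of 6 windows of 100 bp, against list shares of 8.85% to 11.4%. In the order SOX4 untreated and TNF, RELA untreated and TNF, genes with a summit made up 0.825%, 2.03%, 1.51% and 9.25% of protein-coding genes, 0.225%, 0.593%, 0.463% and 2.49% of all genes with 5 kb, and 1.001%, 2.61%, 1.90% and 10.9% with 100 kb.

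No paired analysis was possible because the groups hold a single library apiece and no result comes from a test. Reads at summits without a listed peak were not analysed here, so a missing peak is a bound and not a 0. The input came from untreated FLS and served the TNF libraries too, so a background that changes with TNF cannot be told apart from a change in binding.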
